A study of Homo sapiens with 4 samples.

Results

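The MYC and MAX network is a set of transcription factors that dimerise through a basic helix-loop-helix leucine zipper and compete for the same DNA element. Its members here were taken by name: MYC, MYCL, MAX, MXD1, MXD3, MXD4, MXI1, MNT, MLX and MLXIP, 10 of the 20286 genes in the deposited tables. The rule uses names and no measured value, but the network was picked for description with earlier results of these data known. RNA was sequenced in 2 groups of 2 cultures of HLE, an established line from a human hepatocellular carcinoma. The Vector group stably carried the expression vector and the CYR61 group stably expressed CYR61, a secreted matrix-associated protein whose current symbol is CCN1. No source used here names the promoter of the vector. The series design describes each pair as independent cultures of a whole stable population. The p-values therefore measure the spread between cultures of 1 population per group, and not the spread between separately made populations. In bulk RNA, a lower level in every cell and fewer cells expressing a gene cannot be told apart.

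MYC and MYCL bind DNA as dimers with MAX and activate genes of ribosome production, growth and metabolism. The MXD proteins, MXI1 and MNT also dimerise with MAX at the same element, the E-box, but recruit SIN3 and histone deacetylases and repress. MLX is the partner of a parallel arm, in which MLXIP (MondoA) and MLXIPL (ChREBP) respond to glucose-derived metabolites. In liver, ChREBP drives glycolytic and lipogenic genes, and MYC gain is frequent in hepatocellular carcinoma.

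The E-box is also found in promoters of the network's own genes. Windows of the 250 bases before each start were read from RefSeq on GRCh38.p14 and searched for CACGTG, which reads the same on both strands. They were also searched for the shorter ACGTG on either strand, which every CACGTG contains. Of the 10 members, 9 matched, all except MYC, and they gave 12 windows. CACGTG was present in 3 windows (25.0%), those of MXD4, MNT and MLX, compared with 6.34% of all 35116 windows and 8.27% of the 14934 windows of tested genes. ACGTG was present in 41.7% of the 12 windows, 18.5% of all windows and 22.1% of those of tested genes. The 3 windows with CACGTG are printed with the second of 3 MXI1 starts, because MXI1 had the smallest p among the members and only this start held the shorter element. Capitals mark CACGTG, or in MXI1 the reverse complement of ACGTG, and each sequence runs 5′ to 3′ on the strand of its gene.
MXD4, chr4:2262110-2262359, minus strand: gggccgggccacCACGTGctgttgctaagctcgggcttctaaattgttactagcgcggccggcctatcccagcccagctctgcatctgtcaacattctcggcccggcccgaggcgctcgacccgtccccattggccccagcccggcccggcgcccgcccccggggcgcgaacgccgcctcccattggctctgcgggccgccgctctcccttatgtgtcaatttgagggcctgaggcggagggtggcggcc
MNT, chr17:2401061-2401310, minus strand: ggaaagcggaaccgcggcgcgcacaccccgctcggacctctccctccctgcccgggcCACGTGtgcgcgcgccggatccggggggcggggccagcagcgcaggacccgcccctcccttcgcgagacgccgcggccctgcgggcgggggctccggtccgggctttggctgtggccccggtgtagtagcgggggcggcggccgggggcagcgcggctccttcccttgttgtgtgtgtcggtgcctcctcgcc
MLX, chr17:42566850-42567099, plus strand: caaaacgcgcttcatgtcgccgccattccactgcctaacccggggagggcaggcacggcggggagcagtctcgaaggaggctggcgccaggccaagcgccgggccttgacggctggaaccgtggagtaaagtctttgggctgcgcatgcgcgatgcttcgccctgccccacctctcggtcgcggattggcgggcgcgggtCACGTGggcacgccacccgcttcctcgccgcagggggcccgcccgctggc
MXI1 second start, chr10:110209981-110210230, plus strand: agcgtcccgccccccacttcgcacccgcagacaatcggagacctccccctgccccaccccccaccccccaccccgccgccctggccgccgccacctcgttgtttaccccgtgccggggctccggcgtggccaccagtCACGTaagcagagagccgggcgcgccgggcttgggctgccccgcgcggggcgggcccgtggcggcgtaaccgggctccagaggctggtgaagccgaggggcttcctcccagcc
CACGTG began 238 bases before the start in MXD4, 193 bases before it in MNT and 50 bases before it in MLX. The match in MXI1 began 113 bases before its second start. MXD1, MXD3, MYCL and MLXIP held neither element in this window. The window of the first MAX start held ACGTG, 22 bases before that start, and no CACGTG. It lies inside the gene span given for MAX below. The window of the second MAX start held neither element. A match is a description of the letters and not a measured binding site, and counts per gene cannot tell the starts of MXI1 apart.

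The libraries held 16186988 to 21588822 estimated counts, with 14573 to 15068 genes at a count above 0. CYR61 itself checked the labels: it stood at 221 and 218 CPM (counts scaled to a common library size, adjusted by TMM factors) in Vector and at 8088 and 8616 in CYR61. Its log2 fold change was 5.25, with an SE of 0.13 and an adjusted p of 1.33e-08 in edgeR. Of 11 hepatocyte markers, 8 were below 1 CPM in every library, and ALB, APOA2, APOB and TTR had 0 counts. The summed hepatocyte markers ranged from 16.9 to 17.6 CPM in Vector and from 14.9 to 15 CPM in CYR61. The summed epithelial markers, keratins among them, ranged from 3238 to 3762 CPM and from 4199 to 4662 CPM, in the same order. Most of this sum was KRT8 and KRT18, and neither was called (edgeR adjusted p = 0.117 and 0.128). KRT19, EPCAM and CDH1 were each at most 2.6 CPM. EPCAM and CDH1 were not called, and KRT19 was not tested. The summed mesenchymal markers ranged from 1872 to 2125 CPM in Vector and from 1617 to 1882 in CYR61. FN1 among them, which encodes fibronectin, was called lower (-1.48, edgeR adjusted p = 0.000191). VIM, CDH2, ZEB1 and TWIST1 were not called, and of these only CDH2 had a log2 fold change above 0 (0.18). The summed fibroblast markers ranged from 38.2 to 46.6 CPM and from 37.7 to 38.2, and DCN among them was called higher from a low level, at 0.637 and 0.543 CPM in Vector and 3.67 and 2.25 in CYR61 (edgeR adjusted p = 0.00746). Endothelial markers summed to at most 2.63 CPM. Leukocyte markers summed to 63.4 to 68 CPM in Vector and 49.1 to 53.9 in CYR61, of which CD68, also a lysosomal gene of other cells, gave 62.6 to 67.2 and 48.1 to 53.3. The part of these marker differences in the results was not tested. Libraries of the same group also differed along GC content: across genes, which are not independent replicates, Spearman's rho with GC was -0.75 for the log2 ratio of Vector 2 over Vector 1 and 0.80 for that of CYR61 2 over CYR61 1. It was -0.18 for the difference between groups. Values after removal of this trend are given beside the members' results.

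MYC was by far the most abundant transcript of the network. Levels between genes were compared as CPM per kb of exon. MYC ranged from 157 to 208 CPM per kb over the 4 libraries, and no other network gene exceeded 14. MLX followed at 12.3 to 14 CPM per kb, with a range that did not overlap the next. MLXIP (9.17 to 11), MXD4 (8.76 to 11), MXI1 (6.24 to 10.1), MAX (6.88 to 8.95), MNT (5.76 to 7.88) and MGA (5.39 to 6.83), an additional MAX partner that was not among the members, each overlapped its neighbour in this order. MXD1 (1.81 to 2.97 CPM per kb) and MXD3 (1.94 to 2.49) were lower and overlapped. MLXIPL ranged from 0.782 to 3.07 and overlapped both. MYCL was the lowest member, at 0.294 to 0.458 CPM per kb. MYCN, the MYC paralog of neural tumours, had 0 counts in the 4 libraries. With the longest transcript as the length, MYC, MLX, MLXIP and MXD4 held the first 4 places and MYCL the last place above 0, while MNT moved ahead of MXI1 and MAX, and MXD3 and MLXIPL ahead of MXD1.

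**Figure D1:**
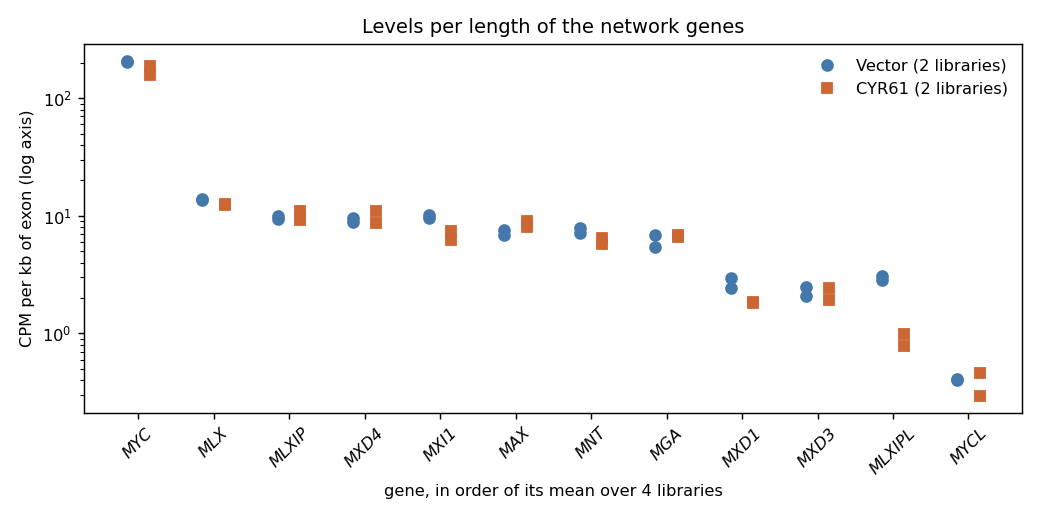
Level of each network gene in CPM per kb of exon (log axis) in 2 Vector libraries (circles) and 2 CYR61 libraries (squares), with genes in the order of their mean over 4 libraries. MYC lies between 157 and 208 in every library, above MLX at 12.3 to 14, and MYCL lies lowest at 0.294 to 0.458.

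No member passed the threshold between CYR61 and Vector. By edgeR's quasi-likelihood test with Benjamini-Hochberg adjustment over 12698 genes, 0 of 10 members had an adjusted p below 0.05, against 6.39% of all genes tested (1.83% higher and 4.56% lower). At an unadjusted p below 0.05 there were 4 members (MYC, MXD1, MXI1 and MNT), or 40%, against 22.9% of all genes. DESeq2 called 1 member, MXI1 (adjusted p = 0.049), against 7.96% of the 11768 genes it gave an adjusted p (3.20% higher and 4.76% lower), and limma-voom called 0. Without the filter on low counts edgeR called 2, MXD1 and MXI1, both lower, against 10.4% of genes (4.03% higher and 6.40% lower). The groups did not overlap for 6 of 10 members, with MAX above and MYC, MXD1, MXI1, MNT and MLX below in CYR61, against 51.5% of all genes. The median log2 fold change of the members was -0.14, with 3 above 0 and 7 below, and that of all genes tested was -0.01.

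**Figure D2:**
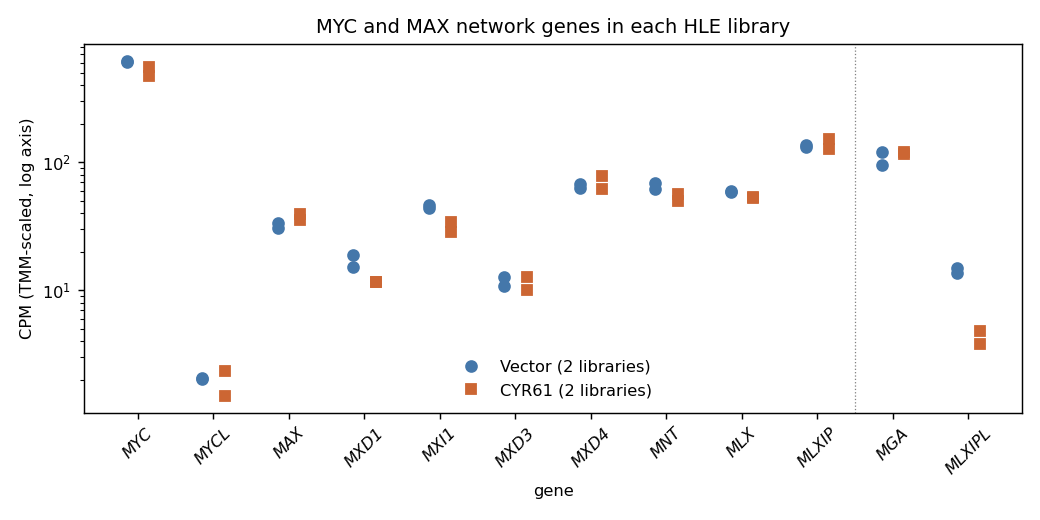
CPM of each member, and right of the dotted line of MGA and MLXIPL, in 2 Vector libraries (circles) and 2 CYR61 libraries (squares) on a log axis. The groups lie close together for the members, whereas MLXIPL is at 13.6 and 14.8 CPM in Vector and 3.77 and 4.76 in CYR61.

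MYC (ENSG00000136997, chr8:127735434-127741434, plus strand, hg38), the activating member, was at 624 and 609 CPM in Vector and at 472 and 557 CPM in CYR61. Both CYR61 libraries were below both Vector libraries, and the CYR61 pair lay further apart than the Vector pair. The means were 617 ± 10.7 (SD, n = 2) and 515 ± 59.8 (SD, n = 2). The fitted level was 16.6% lower in CYR61, with a 95% confidence interval from 30.3% lower to 0.125% lower, before adjustment for the number of genes. The log2 fold change was -0.26 (SE 0.12), and the edgeR adjusted p was 0.215. With the GC trend removed the MYC level was 574 and 612 CPM in Vector and 517 and 550 in CYR61, the log2 fold change was -0.15 and the edgeR adjusted p was 0.098. MYCL (ENSG00000116990, chr1:39895426-39902256, minus strand), its paralog, rested on 32 to 45 counts per library, at 2.07 and 2.04 CPM in Vector and 1.49 and 2.32 in CYR61. The CYR61 libraries lay on either side of the Vector pair. The MYCL log2 fold change of -0.13 had an interval from -0.87 to 0.61, so a sizeable change in either direction was not detectable at this depth, and it was -0.02 with the GC trend removed.

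MAX (ENSG00000125952, chr14:65006174-65102695, minus strand), the shared partner of MYC, the MXD proteins and MNT, was the one member with both CYR61 libraries above both Vector libraries. It stood at 30.5 and 33.5 CPM in Vector and at 39.7 and 35.7 in CYR61, with means of 32 ± 2.12 and 37.7 ± 2.81 (SD, n = 2 each). The log2 fold change was 0.24 (SE 0.14; interval -0.07 to 0.55), with an edgeR adjusted p of 0.348. With the GC trend removed it was 0.29 and the edgeR adjusted p was 0.0444, so MAX passed the threshold there. The estimated counts of MAX were not whole numbers in any library. Per kb of exon, MYC exceeded MAX 30.3-fold and 26.9-fold in Vector and 17.6-fold and 23-fold in CYR61.

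Among the MAX-binding repressors, the lowest p-values of the network belonged to MXI1 and MXD1. MXI1 (ENSG00000119950, chr10:110207605-110287365, plus strand), an MXD family repressor also known as MXD2, was at 44 and 46.5 CPM in Vector and at 34.4 and 28.7 in CYR61. Each CYR61 library lay below each Vector library, and the gap between groups exceeded the gap within either. The means were 45.3 ± 1.71 and 31.6 ± 3.97 (SD, n = 2 each). The log2 fold change of MXI1 was -0.52 (SE 0.14; interval -0.84 to -0.20), and its edgeR adjusted p of 0.0608 missed the threshold. MXI1 passed in DESeq2 (-0.50, adjusted p = 0.049), in edgeR without the filter on low counts (adjusted p = 0.0158) and in edgeR after removal of the GC trend (-0.50, adjusted p = 0.00177). It did not pass in limma-voom (adjusted p = 0.0614) or in edgeR with a block for replicate number (adjusted p = 0.317). Its log2 fold change was -0.64 without CYR61 1, -0.40 without CYR61 2, -0.56 without Vector 1 and -0.47 without Vector 2. Over all alternatives its log2 fold change ranged from -0.64 to -0.40.

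MXD1 (ENSG00000059728, chr2:69897688-69942945, plus strand), known as MAD1 and linked to differentiation, was at 15.3 and 18.9 CPM in Vector and at 11.7 and 11.5 in CYR61. Both CYR61 libraries were lower and close together. The means were 17.1 ± 2.51 and 11.6 ± 0.138 (SD, n = 2 each), with a log2 fold change of -0.56 (SE 0.17; interval -0.95 to -0.17) and an edgeR adjusted p of 0.0896. MXD1 passed without the filter on low counts (edgeR adjusted p = 0.0325) and after removal of the GC trend (-0.56, edgeR adjusted p = 0.00616). It did not pass in DESeq2 (adjusted p = 0.152), in limma-voom (adjusted p = 0.0965) or in edgeR with a block for replicate number (adjusted p = 0.374). With both that block and removal of the GC trend MXD1 passed (-0.55, edgeR adjusted p = 0.00721). With 1 library left out, its log2 fold change ranged from -0.70 without Vector 1 to -0.39 without Vector 2. The level of MXD1 is uncertain, because the gene shares 237 exon bases with SNRNP27, a splicing factor gene on the same strand. The estimated counts of MXD1 were also not whole numbers. SNRNP27 was at 14.8 and 16.7 CPM in Vector and at 20.2 and 16.6 in CYR61, and the log2 ratio of the summed MXD1 and SNRNP27 CPM between groups was -0.13.

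MNT (ENSG00000070444, chr17:2384060-2401118, minus strand), the broadly expressed MAX-binding repressor, was at 68.8 and 62 CPM in Vector and at 50.3 and 56.1 in CYR61. The groups did not overlap. The log2 fold change of MNT was -0.30 (SE 0.13; interval -0.59 to -0.01), with an edgeR adjusted p of 0.205. Removal of the GC trend took it to -0.15, with 61.7 and 62.2 CPM in Vector and 56.7 and 55.2 in CYR61 (edgeR adjusted p = 0.129). MXD4 (ENSG00000123933, chr4:2247432-2262294, minus strand), a further MXD family repressor, was at 67.4 and 62.7 CPM in Vector and at 61.8 and 77.9 in CYR61, so that 1 CYR61 library lay below and 1 above the Vector pair. Its log2 fold change was 0.10 (interval -0.21 to 0.42; edgeR adjusted p = 0.721). After removal of the GC trend, MXD4 was at 60.4 and 63 CPM in Vector and 70 and 76.6 in CYR61, a log2 fold change of 0.25 (edgeR adjusted p = 0.0279). Without the second CYR61 library the MXD4 value was -0.07.

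MXD3 (ENSG00000213347, chr5:177301461-177312757, minus strand), an MXD protein linked to proliferating cells, was at 12.8 and 10.7 CPM in Vector and at 10 and 12.6 in CYR61. The groups overlapped, and the log2 fold change was -0.06 (interval -0.49 to 0.36; edgeR adjusted p = 0.887). After removal of the GC trend it was 0.10 (edgeR adjusted p = 0.566), so its direction turned. MXD3 is uncertain too: it shares 926 exon bases with RAB24 on the same strand and 1158 with PRELID1 on the opposite strand. RAB24, a small GTPase gene, was at 32.4 and 30.3 CPM in Vector and at 18.2 and 25.6 in CYR61. The log2 ratio of the summed MXD3 and RAB24 CPM was -0.38. PRELID1 was at 301 and 274 CPM in Vector and at 317 and 336 in CYR61. Summed with PRELID1 instead, the log2 ratio was 0.18, in the opposite direction.

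Summed per kb of exon, MXD1, MXI1, MXD3, MXD4 and MNT gave 31.9 and 31.1 in Vector and 25.8 and 28 in CYR61. MYC exceeded this sum 6.52-fold in each Vector library, and 6.11-fold and 6.64-fold in the CYR61 libraries. The ratio in CYR61 lay on either side of that in Vector, so the balance of activator to repressor transcripts did not differ beyond its spread. With 2 libraries against 2, a two-sided exact permutation test cannot go below p = 0.333. MYC made up 76.7% and 76.5% of the members' summed CPM per kb in Vector and 73.5% and 75.6% in CYR61.

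In the MLX arm, the members varied little and a non-member, MLXIPL, was the one network gene that fell. MLX (ENSG00000108788, chr17:42567068-42573239, plus strand), the shared partner of the arm, was at 59.6 and 58.5 CPM in Vector and at 53.6 and 52.5 in CYR61. The groups did not overlap, but the log2 fold change was only -0.15 (SE 0.12; interval -0.43 to 0.12; edgeR adjusted p = 0.491). After removal of the GC trend it was -0.09 (edgeR adjusted p = 0.367). MLX overlaps PSMC3IP by 770 exon bases on the opposite strand, and no source used here gives the strandedness of the libraries. PSMC3IP, a meiotic recombination gene, was at 35.1 and 30.6 CPM in Vector and at 24 in each CYR61 library. MLXIP (ENSG00000175727, chr12:122078722-122147347, plus strand), the MondoA gene, was at 137 and 131 CPM in Vector and at 128 and 153 in CYR61, which lie on either side. Its log2 fold change was 0.06 (interval -0.21 to 0.34; edgeR adjusted p = 0.813). After removal of the GC trend, MLXIP was at 126 and 132 CPM in Vector and 140 and 151 in CYR61, which no longer overlap, with a log2 fold change of 0.17 (edgeR adjusted p = 0.0697).

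MLXIPL (ENSG00000009950), the ChREBP gene, was at 13.6 and 14.8 CPM in Vector and at 3.77 and 4.76 in CYR61, from 257 and 326 counts against 81 and 76. The means were 14.2 ± 0.795 and 4.26 ± 0.702 (SD, n = 2 each), and the groups were far apart relative to their spread. MLXIPL was 3.35-fold lower in CYR61, with a log2 fold change of -1.75 (SE 0.20; interval -2.19 to -1.30) and an edgeR adjusted p of 0.00104. It passed the threshold in each alternative run, with values from -1.91 to -1.56. MGA, whose product pairs with MAX and is tied to a Polycomb complex, was at 95.1 and 120 CPM in Vector and 121 and 117 in CYR61 (0.14, edgeR adjusted p = 0.577).

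**Figure D3:**
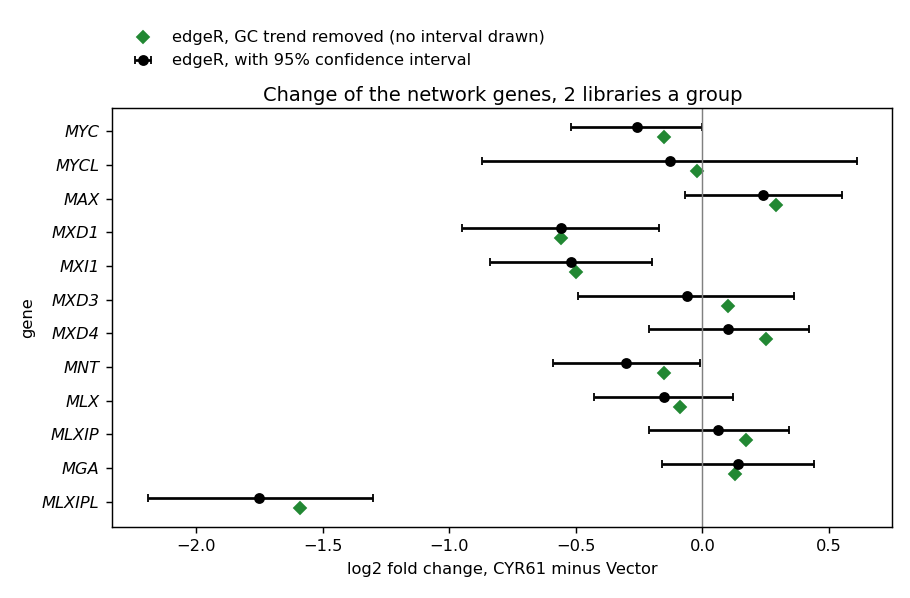
Log2 fold change, CYR61 minus Vector, of each network gene by edgeR with its 95% confidence interval (black circles with bars), and with the GC trend removed (green diamonds, no interval). MLXIPL lies at -1.75 and apart from the rest, MXD1 and MXI1 at -0.56 and -0.52 differ little from their diamonds, and MXD3 crosses 0 to 0.10.

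The spread between libraries of the same group followed the GC content of the network transcripts as well. In MGA, MXD1, MXI1 and MAX, with 42.7% to 51.1% GC, Vector 2 was above Vector 1 and CYR61 1 above CYR61 2. In MYC, MLXIP, MYCL, MNT, MXD4 and MXD3, with 57% to 62.8% GC, both differences had the opposite sign. The log2 ratio of CYR61 1 over CYR61 2 was 0.26 for MXI1 and -0.33 for MXD4. With the trend removed, edgeR called 4 of 10 members, MXD1 and MXI1 lower and MAX and MXD4 higher, against 31.0% of all genes tested (18.6% higher and 12.4% lower).

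**Figure D4:**
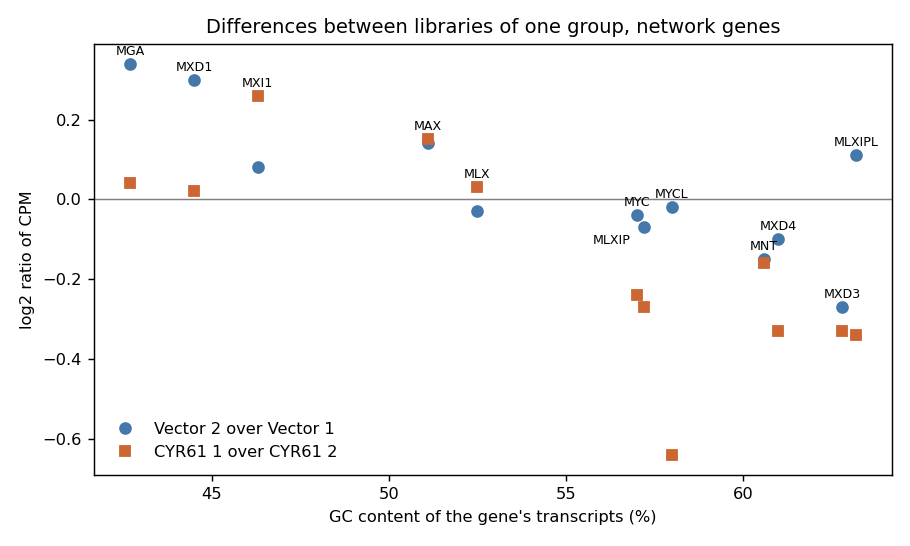
Log2 ratio of CPM between the libraries of the same group against the GC content of each gene's transcripts in percent, for Vector 2 over Vector 1 (circles) and CYR61 1 over CYR61 2 (squares). Genes up to 51.1% GC lie above 0 and most genes from 57% lie below, with MLXIPL in Vector (0.11) as the exception.

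Of 14 genes of MYC turnover, 2 rose, 1 fell and 11 were not called by edgeR, with a median log2 fold change of 0.03. Over all genes tested, 1.83% were called higher and 4.56% lower. With the GC trend removed 5 of the 14 were called higher and 4 lower, against 18.6% and 12.4% of all genes. AURKA, a mitotic kinase that can shield MYC proteins from degradation, rose from 70.6 and 80.7 CPM to 128 and 115 (0.68, edgeR adjusted p = 0.0119). SKP2, a ubiquitin ligase subunit that targets MYC, rose from 78.1 and 86.2 CPM to 123 and 112 (0.52, edgeR adjusted p = 0.0339). PIM1, a kinase that phosphorylates MYC, fell from 94.5 and 88 CPM to 43 and 53.6 (-0.92, edgeR adjusted p = 0.00444). The groups did not overlap for these 3 genes, but this was common. CYR61 lay above Vector without overlap for 5 of the 14 genes and below for 5, against 23.9% and 27.7% of all genes. The AURKA call was lost without Vector 1 (edgeR adjusted p = 0.0929). The SKP2 call was lost without Vector 1 (0.28), Vector 2 (0.0792) or CYR61 1 (0.131) and with library size as the only scaling (0.0547), as edgeR adjusted p. HUWE1, a large ubiquitin ligase, was at 863 and 821 CPM in Vector and 640 and 724 in CYR61 (-0.30, edgeR adjusted p = 0.136), and USP22, a deubiquitinase, had a log2 fold change of 0.12. Both passed with the GC trend removed (-0.26 and 0.19, edgeR adjusted p = 0.0186 and 0.0295).

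Among the cofactors that MYC, the MXD proteins and MNT recruit, none was called by edgeR, DESeq2 or limma-voom, but the edgeR counts depended on the GC trend and the filter. Of 16 MYC and MAX cofactors edgeR called 0, against 6.39% of all genes tested. There were 11 log2 fold changes above 0 and 5 below, with a median of 0.08. An unadjusted edgeR p below 0.05 was found for 3, against 22.9% of all genes. With the GC trend removed 6 were called higher and 0 lower, against 18.6% and 12.4% of all genes. Without the filter on low counts 1 was called higher, against 4.03% of genes. KAT2A, the GCN5 acetyltransferase, stood at 157 and 144 CPM in Vector and 183 and 208 in CYR61 (0.38, edgeR adjusted p = 0.092). KAT2A passed without the filter (edgeR adjusted p = 0.0376) and with the GC trend removed (0.51, edgeR adjusted p = 0.000218). The ATPases RUVBL1 and RUVBL2 had log2 fold changes of 0.34 and 0.08, and of 0.40 and 0.23 with the GC trend removed, where both passed (edgeR adjusted p = 0.000878 and 0.027). RUVBL1 shares 344 exon bases with SEC61A1 and 370 with EEFSEC, both on the opposite strand, and its estimated counts were not whole numbers. Of 13 corepressor genes of the SIN3 and NCOR complexes edgeR called 0, with a median of -0.01. Of these, 1 had an unadjusted edgeR p below 0.05, against 22.9% of all genes. NCOR1, at 187 and 192 CPM in Vector and 157 and 153 in CYR61, had a log2 fold change of -0.29 (edgeR adjusted p = 0.145). It was the 1 corepressor gene called with the GC trend removed (-0.27, edgeR adjusted p = 0.00713), where 31.0% of all genes were called. RBBP7, a histone-binding subunit of the SIN3 complex, had a log2 fold change of -0.06.

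Genes that MYC is known to activate in the nucleolus were mostly higher in CYR61. Of 20 such genes 7 rose, 0 fell and 13 were not called, 19 log2 fold changes were above 0, and the median was 0.42 against -0.01 over all genes tested, of which 1.83% were called higher. The exception was the rRNA methyltransferase FBL at -0.01. CYR61 lay above Vector without overlap for 19 of 20 genes, against 23.9% of all genes. NOP2, an rRNA methyltransferase, rose from 124 CPM in each Vector library to 212 and 209 (0.76, SE 0.11, edgeR adjusted p = 0.00307). MRTO4, a ribosome assembly factor, rose from 91.9 and 85.4 CPM to 138 and 130 (0.60, edgeR adjusted p = 0.0144). NOP16 rose from 51.5 and 44.6 CPM to 75.2 and 75.4 (0.65, edgeR adjusted p = 0.0164), and NCL, which encodes nucleolin, from 776 and 820 to 1234 and 1074 (0.53, edgeR adjusted p = 0.0237). In these 4 genes every CYR61 library exceeded every Vector library. NOP16 is uncertain, because it shares 227 exon bases with HIGD2A on the opposite strand and its estimated counts were not whole numbers. HIGD2A was at 49.6 and 41.9 CPM in Vector and at 43.3 and 53.1 in CYR61. The log2 ratio of the summed NOP16 and HIGD2A CPM was 0.40. NOP2 shares 2550 exon bases with the gene model ENSG00000285238 on the same strand. That model was at 0 and 0 CPM in Vector and at 7.58 and 0 in CYR61. The log2 ratio of its CPM summed with that of NOP2 was 0.79. The other 3 that rose were DKC1 (0.50), RRP9 (0.55) and UTP20 (0.74). NPM1, nucleophosmin, was at 1184 and 1362 CPM in Vector and 1792 and 1449 in CYR61 (0.35, edgeR adjusted p = 0.144), and NOLC1 had a log2 fold change of 0.40 (edgeR adjusted p = 0.0609). Both passed with the GC trend removed (edgeR adjusted p = 0.00328 and 0.000993). The number that rose was 11 in DESeq2 (3.20% of all genes), 13 without the filter (4.03%) and 18 with the GC trend removed (18.6%). With a block for replicate number 2 rose, where 53 of 12698 genes were called higher. With 1 library left out, the median ranged from 0.39 without CYR61 1 to 0.51 without CYR61 2. The MRTO4 and NOP16 calls were lost without Vector 2 (edgeR adjusted p = 0.111 and 0.134) and the NCL call without Vector 1 (0.087) or CYR61 1 (0.143).

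Calls among targets of MYC in growth and metabolism were split, but most log2 fold changes were above 0. Of 26 genes 24 were tested (BCAT1 and CCND2 had 0 counts), 2 rose, 3 fell and 19 were not called. Over all genes 1.83% were called higher and 4.56% lower. Log2 fold changes were above 0 for 18 and below 0 for 6, with a median of 0.19. CYR61 lay above Vector without overlap for 14 genes and below for 4, against 23.9% and 27.7% of all genes. CACGTG was present in 36.7% of the 30 promoter windows of these genes, and in 5.0% of the 20 windows of the nucleolar genes. ODC1, the rate-limiting enzyme of polyamine synthesis, rose from 172 and 181 CPM to 285 and 263 (0.63, edgeR adjusted p = 0.00915). RCC1, the exchange factor of RAN, rose from 236 and 217 CPM to 308 and 315 (0.46, edgeR adjusted p = 0.0348). The glutamine transporter SLC1A5 fell from 459 and 435 CPM to 267 and 298 (-0.66, edgeR adjusted p = 0.00771). SHMT2, a mitochondrial serine enzyme, fell from 582 and 500 CPM to 358 and 405 (-0.50, edgeR adjusted p = 0.0374). The amino acid transporter SLC7A5 fell as well, close to the threshold (-0.49, edgeR adjusted p = 0.0494). The number of these genes called lower was 2 in limma-voom and with upper quartile scaling, and 1 with RLE scaling. LDHA and EIF4A1 had log2 fold changes of -0.01 and 0.18, and EIF4A1 passed with the GC trend removed (0.23, edgeR adjusted p = 0.0235). The RCC1 call was lost without any 1 of the 4 libraries (edgeR adjusted p = 0.075 to 0.27), and the ODC1 call without Vector 1 (0.0548). The SHMT2 call was lost without Vector 1 (0.275) or CYR61 1 (0.204) and with RLE scaling (0.0548). With 1 library left out, 1 to 3 rose and 1 to 4 fell. DESeq2 called 6 higher and 3 lower, against 3.20% and 4.76% of all genes. Removal of the GC trend gave 13 higher and 3 lower, against 18.6% and 12.4% of all genes, so that the share called lower was near the background.

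Genes that MYC is known to repress were mostly lower in CYR61, in which MYC itself was not called. Of 15 genes 13 were tested (NDRG2 and RGS16 were not): 9 fell, 1 rose and 3 were not called, with a median of -0.90, against 4.56% lower and 1.83% higher over all genes. NDRG1, a stress-responsive gene, fell from 727 and 610 CPM to 167 and 186 (-1.92, edgeR adjusted p = 7.26e-05). CDKN1A, the p21 cell cycle inhibitor, fell from 86.4 and 82.4 CPM to 26 and 25.9 (-1.70, edgeR adjusted p = 0.000104). CDKN2B, the p15 inhibitor, fell from 72.9 and 67.5 CPM to 32.1 and 37.5 (-1.01, edgeR adjusted p = 0.00226). These 3 genes were lower in each CYR61 library by far more than the gap within a group. DDIT3, the CHOP stress factor, fell from 26.2 and 25.2 CPM to 8.32 and 9.14 (-1.56, edgeR adjusted p = 0.000617), but it is uncertain, since it shares 355 exon bases with MARS1 on the opposite strand, which was itself called lower (-0.99). The others that fell were CDKN1C (-0.90), GADD45A, GADD45B (-0.89), CEBPA (-1.17) and FTH1 (-0.49), and CLU rose (0.48, edgeR adjusted p = 0.0343). With 1 library left out, 7 to 9 fell. CLU was not called without Vector 1, Vector 2 or CYR61 2. The p27 gene CDKN1B was at 47.4 and 60.1 CPM in Vector and 58 and 48.3 in CYR61 (-0.01), and THBS1 had a log2 fold change of 0.05.

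Among known targets of the MLX arm, 3 fell, and the MondoA target TXNIP was not among them. Of 6 genes 5 were tested (PKLR was not), 3 fell, 0 rose and 2 were not called, with a median of -0.58, against 4.56% of all genes called lower. KLF10, a glucose-responsive repressor, fell from 81.3 and 88.8 CPM to 47.8 and 47.1 (-0.84, edgeR adjusted p = 0.00347). ARRDC3, an alpha-arrestin, fell from 30.9 and 36.8 CPM to 18.2 and 13.9 (-1.07, edgeR adjusted p = 0.00701). HK2, hexokinase 2, fell from 234 and 214 CPM to 140 and 160 (-0.58, edgeR adjusted p = 0.0195), a call lost without Vector 1 (0.123) or CYR61 1 (0.113). TXNIP, the arrestin most closely tied to MondoA, was at 76.1 and 80.8 CPM in Vector and 69.8 and 77.5 in CYR61 (-0.09, edgeR adjusted p = 0.704). ARRDC4, also a known MondoA target, had a log2 fold change of 0.06. Of 8 other E-box-binding factors of the same structural class 7 were tested, all 7 had log2 fold changes below 0, with a median of -0.17, and 1 fell. That gene was TFE3, a lysosomal and metabolic regulator, at 133 and 120 CPM in Vector and 81.5 and 96.4 in CYR61 (-0.51, edgeR adjusted p = 0.0449). The TFE3 call was lost without Vector 1 (0.289), Vector 2 (0.0706) or CYR61 1 (0.256) and with RLE scaling (0.0608). SREBF2 and SREBF1, the sterol and lipid regulators, had log2 fold changes of -0.43 and -0.02. With the GC trend removed, 5 of the 7 were below 0 and 3 were called lower, SREBF2 among them (-0.31, edgeR adjusted p = 0.00378), against 12.4% of all genes.

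**Figure D5:**
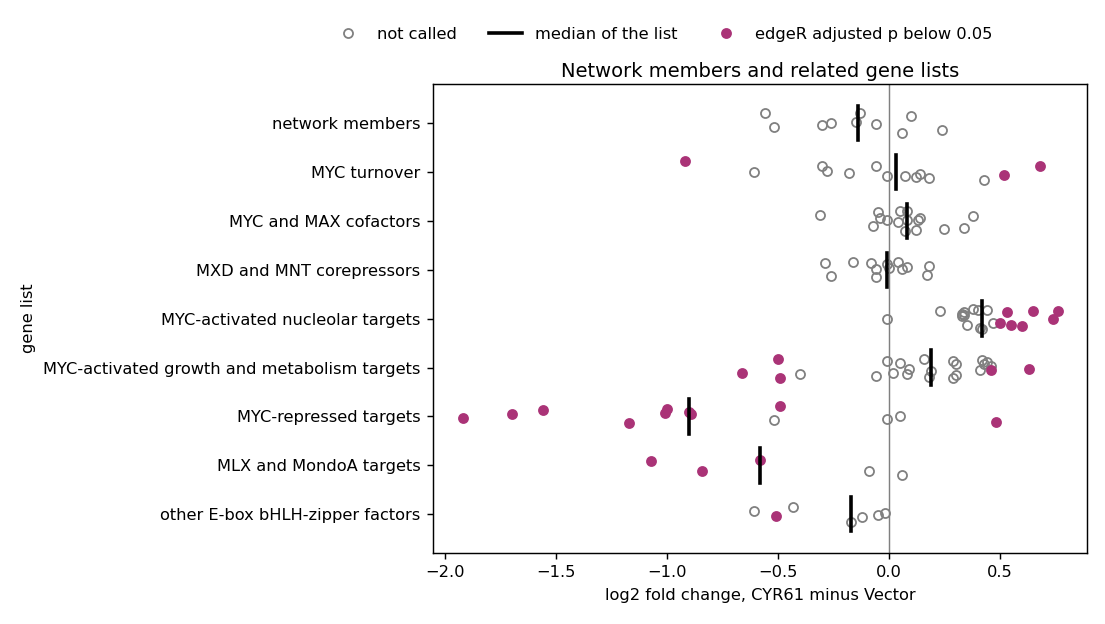
Log2 fold change, CYR61 minus Vector, of every tested gene of the network and of 8 related lists, with filled points for an edgeR adjusted p below 0.05 and a bar at each list's median. The nucleolar targets centre on 0.42 and the MYC-repressed targets on -0.90, whereas the members centre on -0.14 with 0 filled points.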

How the data were processed

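RNA was sequenced from 2 Vector and 2 CYR61 cultures of HLE cells, grouped by the labels. The authors deposited estimated counts per Ensembl gene, 1 table per library, of which 11.2% to 12% of the values were not whole. The submitters' processing notes name Cuffdiff 1.3.0, Cufflinks 2.2.1 and TopHat2 2.1.1, with hg38 as the build. For the counting program, its annotation and the strandedness nothing is given in the sources used here, so overlapping genes on either strand may share reads.

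Counts were rounded, filtered by filterByExpr (12698 genes left), scaled by TMM and fitted on group with edgeR 4.0.16 (glmQLFit, glmQLFTest, R 4.3.3), with p-values adjusted by Benjamini-Hochberg and called below 0.05; "called", "rose" and "fell" refer to it. Log2 fold changes are CYR61 minus Vector, and intervals are 95%. Symbols matched 20228 of 20286 identifiers and GENCODE 29 positions 20212. Alternatives were DESeq2 1.42.0, limma-voom (limma 3.58.1), other scalings and filters, removal of the GC trend per library (spline with 5 degrees of freedom), a replicate block and each library left out. On simulated data for this comparison (12610 genes), 42% of 1.5-fold, 84% of 2-fold and 100% of 4-fold changes were recovered, with 5 false calls. The simulated counts held no GC trend and no spread particular to a gene. These rates therefore do not describe the real libraries in those respects.

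The members and lists were chosen with earlier results of these data known, so list counts are descriptions. Named genes were CYR61, every member, 3 other network genes and, per list, up to 4 called genes of smallest adjusted p, or the 1 of smallest p where none was called, and at most 2 uncalled genes of highest mean CPM; 1 gene that this rule names is not reported here. The remaining called genes of a list, FBL and the genes listed as not tested were named after their values were seen. Genes with the pattern most like a called member were to be named too, but no member was called.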

Additional observations from a re-analysis of the deposited data

How the results depend on the processing

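The 4 libraries limit the precision, and intervals cover the spread of 2 cultures per group. The number of genes called, 811, became 1677 without a filter, 3931 with the GC trend removed and 481 to 1331 with 1 library left out, lowest without Vector 1 and highest without CYR61 2. The 0 members called became 1 in DESeq2, 2 without a filter, 4 with the GC trend removed and 0 to 1 with 1 library left out. The 30 related genes called became 67 with the GC trend removed and 17 to 38 with 1 library left out. Replicate numbers were shared between groups, but deviations of same-numbered libraries correlated at -0.7145 over 10380 genes, so they were not taken as pairs: with the replicate block 391 genes, 0 members and 14 related genes were called, and with the GC trend removed and the block 3084, 2 and 59. A block with crossed numbers, added after the data were seen, called 5624 of 12698 genes (2748 higher and 2876 lower), 6 members and 76 related genes. The members were MAX, higher (0.24), and MYC (-0.27), MXD1 (-0.56), MXI1 (-0.52), MNT (-0.30) and MLX (-0.15), lower.

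Some values near 0 changed sign; the cause was not tested. Without CYR61 1 the log2 fold change was 0.19 for MYCL, 0.11 for MXD3, 0.13 for SREBF1 and -0.04 for ARRDC4. Without CYR61 2 it was -0.07 for MXD4, -0.07 for MLXIP, -0.03 for RUVBL2, 0.00 for RBBP7, 0.07 for LDHA and 0.11 for CDKN1B. Without Vector 1 it was 0.07 for MXD3, -0.02 for MGA and 0.10 for SREBF1. Without Vector 2 it was -0.06 for RUVBL2, 0.01 for LDHA, -0.06 for THBS1 and 0.17 for CDKN1B. With the GC trend removed, with or without the replicate block, it was 0.10 for MXD3, 0.14 for SREBF1 and 0.01 for CDKN1B. DESeq2 gave 0.01 for LDHA and 0.01 for CDKN1B, and RLE scaling 0.00 for both. With 1 library left out in turn, the other ends of these ranges were -0.46 for MYCL, -0.23 for MXD3, 0.27 for MXD4, 0.20 for MLXIP, 0.33 for MGA, 0.24 for RUVBL2, -0.11 for RBBP7, -0.08 for LDHA, 0.18 for THBS1 and -0.18 for SREBF1. Over all alternatives MYC ranged from -0.38 to -0.14, MAX from 0.17 to 0.31, MXD1 from -0.70 to -0.39, MNT from -0.38 to -0.15 and MLX from -0.17 to -0.09. The blocked fit lost the calls of AURKA, SKP2, NCL, MRTO4, NOP16, ODC1, RCC1, SHMT2, SLC1A5, HK2 and TFE3 (edgeR adjusted p from 0.0563 to 0.317).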
